A study of Mus musculus with 6 samples.

Results

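The genes described here are 40 very long mouse genes, each spread over a very wide stretch of the genome. They were taken by symbol from a deposited table of 32544 genes and 6 libraries, and all 40 were found in it. Of these, 39 reached 1 CPM, reads scaled to a fixed library total, in at least 3 libraries and could be tested. Lrp1b, a large endocytic receptor of the LDL receptor family, did not. It was listed at 0 in 1 library of each group and had its highest value, 0.376 CPM, in DMSO replicate 3. Cdh13 passed that filter through the DMSO libraries alone, and a gene that passes in this way has to differ between the groups. It is counted below among the genes called lower and among those without overlap, and is no support in either count.

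The AA group was 3 libraries from C57Bl/6 mice that had received aristolochic acid I (AAI) once, at 3 mg/kg, 24 h before the kidneys were taken. The DMSO group was 3 libraries from C57Bl/6 mice that had received the solvent alone, with the same dose and time given in the labels. The mice of both groups are described as control mice, with no allele, age or sex given. RNA came from S2 and S3 segments of the kidney proximal tubule, dissected by hand, with several tubules pooled from each kidney. Nothing in the labels ties the libraries of a group to different animals, so p-values measure the spread between these libraries, which may be technical.

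Aristolochic acid is a plant nitroaromatic that is taken up by proximal tubule cells. Once reduced there, it binds covalently to purines and leaves bulky aristolactam adducts on DNA. An elongating RNA polymerase II stalls at such a lesion on the transcribed strand, and transcription-coupled nucleotide excision repair removes it. A polymerase on a long gene crosses more template before it finishes a transcript, so long genes are of interest where elongation may be blocked. Levels of spliced RNA, as read here, do not measure elongation itself. Many very long genes, FHIT and WWOX among them in human cells, also span common fragile sites, where late replication and long transcription units meet.

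The genomic span of the 40 genes ran from 345.724 kb for Tcf4 to 2270.72 kb for Ptprd, with a median of 702 kb (GRCm38, GENCODE M21), against 23.2 kb for the tested genes with a length. A span of 1000 kb or more was reached by 13 of the 40. Little of that span is exon: from 0.0925% for Fhit to 7.92% for Tcf4. The exons together had a median length of 13.3 kb in the 39 tested long genes, against 4.36 kb in all tested genes. The median depth behind a value was 31.3 CPM over the 6 libraries, against 21.3 CPM for all tested genes.

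The promoter sequences of 5 of these genes are shown because polymerases that must cross the whole gene start there. They are the 3 genes with the largest decreases in AA tubules that have a listed start near the annotated 5′ end, and the only 2 of the higher genes with an entry. Each is the 150 bases before the start, read 5′ to 3′ on the gene's strand from RefSeq (GRCm38.p6), with the GC box GGGCGG or its complement CCGCCC in capitals.
Ptprg, chr14:11553403-11553552, plus strand: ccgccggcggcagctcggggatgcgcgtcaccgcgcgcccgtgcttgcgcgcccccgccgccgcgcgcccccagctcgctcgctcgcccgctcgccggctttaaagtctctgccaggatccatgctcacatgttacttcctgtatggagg
Ptprk, chr10:28074670-28074819, plus strand: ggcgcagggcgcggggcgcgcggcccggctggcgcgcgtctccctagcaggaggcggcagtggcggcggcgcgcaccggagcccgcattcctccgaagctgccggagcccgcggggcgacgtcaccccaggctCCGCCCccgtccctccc
Gphn, chr12:78226505-78226654, plus strand: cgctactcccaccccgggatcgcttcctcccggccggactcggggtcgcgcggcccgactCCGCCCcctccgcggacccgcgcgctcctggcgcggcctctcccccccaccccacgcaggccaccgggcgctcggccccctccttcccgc
Magi2, chr5:19226896-19227045, plus strand: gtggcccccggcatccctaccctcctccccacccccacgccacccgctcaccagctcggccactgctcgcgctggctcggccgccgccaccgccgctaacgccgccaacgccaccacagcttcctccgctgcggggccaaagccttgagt
Erbb4, chr1:69108060-69108209, minus strand: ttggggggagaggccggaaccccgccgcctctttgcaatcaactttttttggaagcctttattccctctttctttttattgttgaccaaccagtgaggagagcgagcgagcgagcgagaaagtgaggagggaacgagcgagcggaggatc
The 4 windows other than that of Erbb4 were rich in G and C, from 72% for Ptprg to 82% for Ptprk, against 54% for Erbb4. The GC box is bound by SP1 family factors. Searched on both strands, it was found in 1 place each in the windows of Ptprk and Gphn and in none of the other 3. Among all 32851 RefSeq windows of that length, 28.6% held it and 7.57% held TATAAA.

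RefSeq listed a start for 29 of the 40 genes, with 47 starts in all and 2 or more starts for 12 genes. At the listed start farthest from the gene's end, the GC box was present in 7 of 15 genes that were lower in AA tubules, in 0 of 2 that were higher and in 4 of 12 that were not called. Some starts lie far inside the gene. A start of Ptprg, for example, leaves 52.1 kb to the gene's end, a start of Dmd 158 kb and a start of Ank2 21.8 kb. A value per gene adds the transcripts from all starts, so the deposited table cannot tell them apart.

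Library depth ran from 13304877 to 17815915 reads in AA tubules and from 15958557 to 31136251 reads in DMSO tubules. A count of 3 reads was worth 0.0964 to 0.225 CPM, counting error only. Mitochondrial genes took 4.82% to 8.72% of reads in AA tubules and 4.005% to 10.1% in DMSO tubules. Across genes, Pearson's r lay between 0.970 and 0.980 for libraries of the same group and between 0.918 and 0.950 for libraries of different groups. DMSO replicates 1 and 2 stood apart from the other 4 libraries by more than 2 on the log2 scale in 40 genes, of which 38 were pseudogenes or predicted genes. None of the very long genes was among them.

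Most of the very long genes had less RNA in AA tubules. Of the 39 tested, 22 were lower in AA tubules (56.4%) and 3 were higher (7.69%), by limma's moderated test at a Benjamini-Hochberg adjusted p under 0.05 over all 14311 tested genes. Across all tested genes, 30.9% were called, 8.66% lower and 22.3% higher. The genes that fell include the scaffold gene Magi1, the receptor phosphatase genes Ptprd, Ptprg and Ptprk, the trafficking gene Vps13b and the fragile site genes Fhit and Wwox. Nrg1, Erbb4 and Magi2 rose.

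The median log2 fold change of AA over DMSO, on the log2(CPM + 1) scale used throughout, was −0.87 for the 39 long genes, with quartiles of −1.29 and −0.34. With a pseudocount of 5 in place of 1, it was −0.55. For all tested genes, with a pseudocount of 1, it was 0.21. Relative to that shift, the median of the long genes was −1.08. A fold change below 0 was found in 33 of the 39, a decrease of at least 2-fold in 17 and an increase of that size in 2. All 3 AA values lay below all 3 DMSO values in 25 of the 39 genes and above them in 4, against 13% and 33.4% of all tested genes. Fewer cells of a type and less RNA per cell cannot be told apart in these bulk tubule samples.

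More of the long genes were lower than higher under each scaling of the libraries. As deposited, 72.0% of all called genes were higher in AA tubules. That share was 39.9% with the library medians equalised, 46.7% after quantile normalization and 44.3% with TMM factors. In those 3 fits, 29, 27 and 28 of the 39 long genes were lower in AA tubules, against 16.9%, 14.5% and 15.7% of all tested genes. The number higher was 1, 1 and 2, against 11.2%, 12.7% and 12.5%. Against DMSO replicate 3 alone, the median of the 39 was −0.95. The library-set fit that follows takes its fold changes against that same DMSO library, so it gave the same median and is no separate check. With a library-set term, which set DMSO replicates 1 and 2 against the other 4 libraries, 18 were lower and 1 higher, against 2.96% and 7.39% of all tested genes. Without AA replicate 2, 23 were lower and 1 higher, against 5.61% and 12.9%; without AA replicate 3 or DMSO replicate 1, the number higher was also 1.

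**Figure D1:**
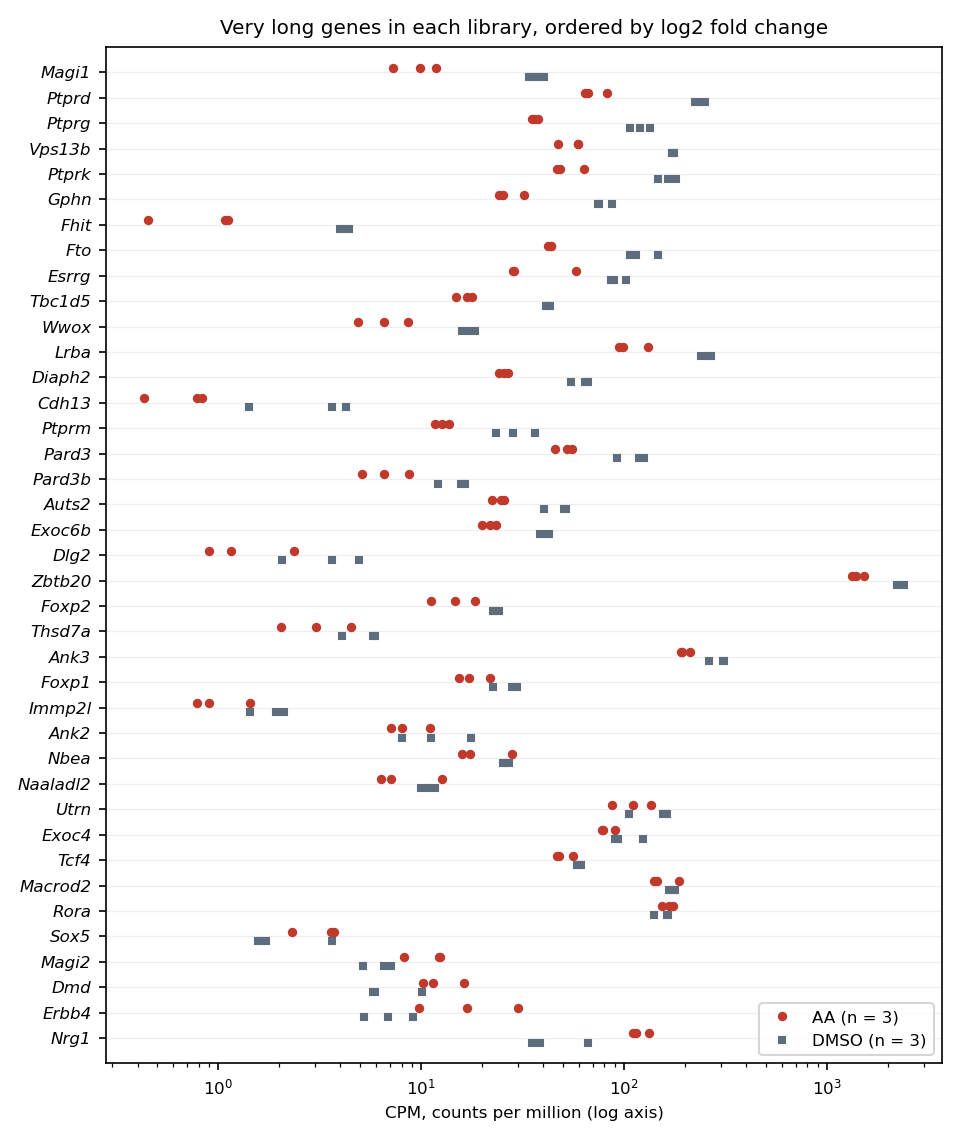
CPM of the 39 tested very long genes in each library, on a log axis, with AA libraries as circles above DMSO libraries as squares and genes ordered by log2 fold change from Magi1 at the top (−1.85) to Nrg1 at the bottom (1.39). For 25 genes all 3 circles lie left of all 3 squares, and for 4 genes, Magi2, Dmd, Erbb4 and Nrg1, they lie right of them.

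The first role group holds 7 small enzymes and fragile site genes, whose coding sequences are short beside the length of their genes. RNA of 4 of them fell and none rose, with a group median of −1.26. Gphn encodes gephyrin, which completes molybdenum cofactor synthesis and anchors inhibitory receptors at synapses. It had 25.3, 32.0 and 24.2 CPM in AA tubules, against 74.0, 75.5 and 87.5 CPM in DMSO tubules. On the log2 scale the fold change was −1.51 (SE 0.16, adjusted p = 9.27e-05). No AA library came near a DMSO library. Fto encodes an RNA demethylase and reached 43.6, 43.8 and 42.3 CPM in AA tubules, against 114, 148 and 107 CPM in DMSO tubules. The fold change was −1.47 on the log2 scale (SE 0.15, adjusted p = 8.45e-05), with tight AA values and no overlap.

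Fhit encodes a dinucleoside triphosphate hydrolase and occupies bases 9550092 to 11162035 of chromosome 14, minus strand (GRCm38). It had 0.451, 1.12 and 1.08 CPM in AA tubules, from 6, 20 and 15 reads, against 3.98, 4.43 and 4.20 CPM in DMSO tubules, from 95, 138 and 67 reads. Its log2 fold change was −1.49 (SE 0.27, adjusted p = 0.00234). The groups were far apart despite the low counts, and the AA mean was 21.03% of the DMSO mean. Wwox encodes a WW domain oxidoreductase and occupies bases 114439655 to 115352708 of chromosome 8, plus strand. It had 4.89, 6.57 and 8.62 CPM in AA tubules, against 15.8, 18.4 and 17.0 CPM in DMSO tubules. On the log2 scale the fold change was −1.26 (SE 0.23, adjusted p = 0.0025), again with no overlap.

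The other 3 of this group were not called. Macrod2, an ADP-ribose hydrolase gene of 1998 kb, had 146, 141 and 186 CPM in AA tubules, against 178, 166 and 176 CPM in DMSO tubules. Its groups overlapped, and its log2 fold change was −0.14 (SE 0.14, adjusted p = 0.462). Macrod2 had a longer span than Fhit and Wwox. Its level per exonic kilobase was also higher than that of Fhit, at 15.3 CPM per kb in AA tubules and 16.8 in DMSO tubules. Fhit had 0.593 CPM per kb in AA tubules and 2.82 in DMSO tubules. Immp2l, for a mitochondrial inner membrane peptidase subunit, had a log2 fold change of −0.48 with 0.786 to 1.44 CPM in AA tubules and 1.44 to 2.12 CPM in DMSO tubules. Naaladl2, related to the folate hydrolase genes, had a log2 fold change of −0.35.

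Among the 8 tested genes for receptors, ligands and surface proteins, 5 fell and 2 rose, with a group median of −1.18. Receptor tyrosine phosphatases carry adhesion domains outside the cell and phosphatase domains inside it, and all 4 on the list fell. Ptprd, a synaptic organiser of 2270.72 kb on chromosome 4 (75941238 to 78211961, minus strand), had 82.5, 66.3 and 63.8 CPM in AA tubules, against 249, 222 and 236 CPM in DMSO tubules. The fold change was −1.73 on the log2 scale (SE 0.14, adjusted p = 1.82e-05). The highest AA value was far below the lowest DMSO value. Ptprg, which has a carbonic anhydrase-like outer domain, had 35.8, 35.2 and 37.7 CPM in AA tubules, against 134, 107 and 120 CPM in DMSO tubules. Its log2 fold change was −1.70 (SE 0.14, adjusted p = 1.85e-05), with no overlap.

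Ptprk and Ptprm, whose proteins bind their own kind between cells, also fell. Ptprk had 63.3, 48.0 and 46.9 CPM in AA tubules, against 181, 147 and 165 CPM in DMSO tubules, with a fold change of −1.63 on the log2 scale (SE 0.15, adjusted p = 5.61e-05). Ptprm had 13.7, 12.7 and 11.6 CPM in AA tubules, against 23.4, 36.3 and 28.4 CPM in DMSO tubules, with a fold change of −1.13 on the log2 scale (SE 0.20, adjusted p = 0.00206). Neither gene's groups overlapped, and 5.18% of the exonic bases of Ptprm lie under exons of another gene on the same strand. Cdh13 encodes T-cadherin, which is anchored by lipid and serves as an adiponectin receptor. It had 0.827, 0.786 and 0.431 CPM in AA tubules, from 11, 14 and 6 reads, against 1.42, 4.24 and 3.63 CPM in DMSO tubules, from 34, 132 and 58 reads. The log2 fold change was −1.22 (SE 0.33, adjusted p = 0.0178). The groups did not overlap, but Cdh13 passed the filter through the DMSO libraries alone. Its separation was thus set by the filter and, like the call at that adjusted p, is no support for a decrease. That call was lost without AA replicate 3, without DMSO replicate 2 and with the library-set term. Thsd7a, a podocyte membrane protein gene, had a log2 fold change of −0.61 and was not called.

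Nrg1 and Erbb4 went the other way; their products are a ligand and its receptor. Neuregulin 1 is an EGF-like ligand, and ERBB4 is a receptor tyrosine kinase that binds it. Nrg1 (chromosome 8, 31814551 to 32884029, minus strand) had 115, 133 and 111 CPM in AA tubules, against 35.0, 38.5 and 66.2 CPM in DMSO tubules. On the log2 scale the fold change was 1.39 (SE 0.21, adjusted p = 0.00101), and against DMSO replicate 3 alone it was 0.84. All AA libraries lay above all DMSO libraries, with DMSO replicate 3 the highest of the solvent group. Nrg1 was called higher in all 16 alternative fits.

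Erbb4 (chromosome 1, 68032186 to 69108059, minus strand) had 9.77, 30.03 and 16.9 CPM in AA tubules, against 6.86, 9.15 and 5.20 CPM in DMSO tubules. The fold change was 1.20 on the log2 scale (SE 0.35, adjusted p = 0.0238). The groups did not overlap, but AA replicate 1 lay close to DMSO replicate 2. The call was lost without AA replicate 2 (log2 fold change 0.81, adjusted p = 0.0967), and also without AA replicate 3, DMSO replicate 1 or DMSO replicate 3, and in 8 of 16 alternative fits in all. The 5 markers of the thick ascending limb summed to 309, 1288 and 677 CPM in AA tubules, against 414, 471 and 167 CPM in DMSO tubules. They were highest in AA replicate 2, the library in which Erbb4 was highest. The 5 principal cell markers summed to 36.2, 78.7 and 57.9 CPM in AA tubules, against 20.4, 28.7 and 12.9 CPM in DMSO tubules. Their sums ranked the 6 libraries in the same order as Erbb4. Sums of the intercalated cell, distal convoluted tubule, podocyte and endothelial lists were also highest in AA replicate 2. Those of the fibroblast, leukocyte and proximal tubule lists were not. The part of all these markers in the Erbb4 value was not tested.

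**Figure D2:**
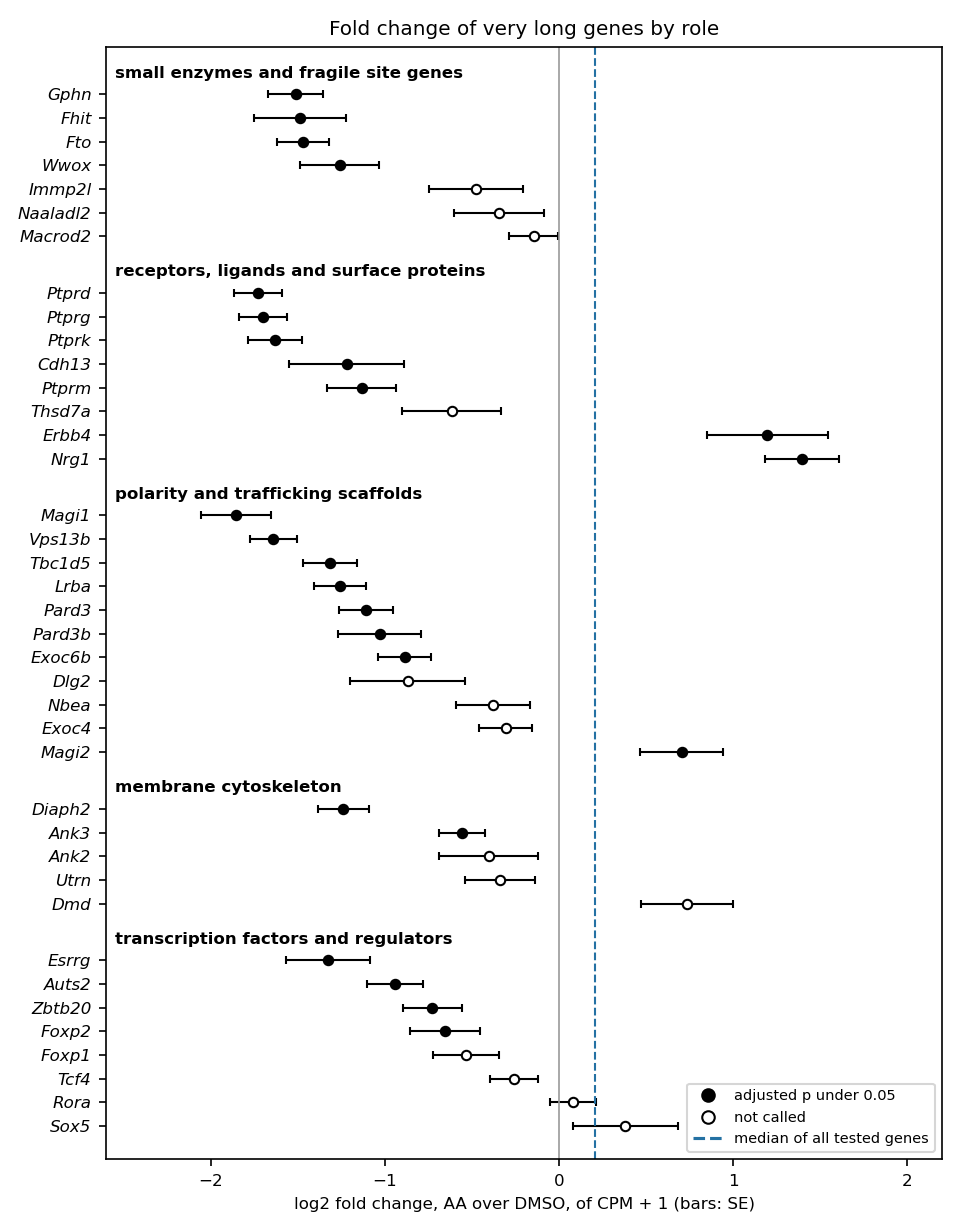
Log2 fold change of AA over DMSO, with its standard error as the bar, for the 39 tested very long genes, grouped by role; filled points are called genes, and the dashed line is the median of all tested genes, 0.21. Most points lie left of 0 in every role group, and the 3 genes called higher are Nrg1 at 1.39, Erbb4 at 1.20 and Magi2 at 0.70.

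The 11 scaffold and trafficking genes showed 7 decreases and 1 increase, with a group median of −1.03. Magi1 and Magi2 are close relatives whose proteins hold PDZ domains at cell junctions, and they were called in opposite directions. Magi1 (chromosome 6, 93675455 to 94283917, minus strand) had 7.29, 11.8 and 9.84 CPM in AA tubules, against 33.9, 40.1 and 36.8 CPM in DMSO tubules. Its fold change of −1.85 on the log2 scale (SE 0.20, adjusted p = 0.000117) was the lowest of the 39 genes. The highest AA library lay far below the lowest DMSO library. Magi2, a gene of 1478 kb whose product is also found at the podocyte slit diaphragm, had 8.19, 12.3 and 12.2 CPM in AA tubules, against 7.11, 6.52 and 5.14 CPM in DMSO tubules. Its log2 fold change was 0.70 (SE 0.24, adjusted p = 0.0434). The groups did not overlap, but the call was lost in 11 of 16 alternative fits, including every one that left out a library other than AA replicate 1. The 6 podocyte markers summed to 78.7 to 124 CPM in AA tubules and 52.7 to 76.0 CPM in DMSO tubules, and their part in the Magi2 value was not tested.

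Pard3 and Pard3b encode members of the PAR polarity complex, which sets the apical side of epithelial cells, and both fell. Pard3 had 52.3, 55.6 and 45.7 CPM in AA tubules, against 92.6, 119 and 125 CPM in DMSO tubules, with a fold change of −1.11 on the log2 scale (SE 0.15, adjusted p = 0.000565). Pard3b had 5.11, 6.57 and 8.69 CPM in AA tubules, against 12.1, 15.6 and 16.5 CPM in DMSO tubules, with a fold change of −1.03 on the log2 scale (SE 0.24, adjusted p = 0.00839). Neither pair of groups overlapped. Exoc6b, an exocyst subunit gene, had 19.99, 23.3 and 21.8 CPM in AA tubules, against 38.5, 41.3 and 42.9 CPM in DMSO tubules. On the log2 scale the fold change was −0.89 (SE 0.15, adjusted p = 0.00185), with no overlap.

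Vps13b, Lrba and Tbc1d5, whose products act in membrane traffic, also fell. Vps13b encodes a Golgi lipid transfer protein and had 47.4, 59.4 and 59.2 CPM in AA tubules, against 173, 175 and 172 CPM in DMSO tubules. The fold change was −1.64 on the log2 scale (SE 0.14, adjusted p = 2.13e-05). Lrba encodes a BEACH domain protein of vesicle traffic and had 94.7, 131 and 98.5 CPM in AA tubules, against 240, 268 and 262 CPM in DMSO tubules. Its log2 fold change was −1.26 (SE 0.15, adjusted p = 0.000207). Both genes separated the groups widely. Tbc1d5 encodes a Rab7 GTPase-activating protein that binds the retromer and had 16.8, 17.8 and 14.9 CPM in AA tubules, against 41.3, 42.7 and 43.2 CPM in DMSO tubules. On the log2 scale the fold change was −1.32 (SE 0.16, adjusted p = 2.00e-04). Its groups did not overlap.

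The 3 scaffold genes that were not called all had negative fold changes. Dlg2, a synaptic membrane-associated guanylate kinase gene of 1973 kb, was at 0.902 to 2.36 CPM in AA tubules and 2.05 to 4.91 CPM in DMSO tubules, with a fold change of −0.87 on the log2 scale (adjusted p = 0.0654). Nbea, the neuronal relative of Lrba, had −0.38, and the exocyst gene Exoc4 had −0.31. Nbea and Lrba have almost equal genomic spans, of 559 kb and 558 kb.

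In the membrane cytoskeleton group, 2 of 5 genes fell and none rose, and the group median was −0.40. Diaph2 encodes a formin that extends actin filaments. It had 26.8, 24.3 and 25.6 CPM in AA tubules, against 64.4, 54.9 and 66.2 CPM in DMSO tubules, with a fold change of −1.24 on the log2 scale (SE 0.15, adjusted p = 0.000199). Ank3 encodes ankyrin G, which tethers the lateral membrane to spectrin. It had 194, 210 and 191 CPM in AA tubules, against 261, 312 and 306 CPM in DMSO tubules, with a fold change of −0.56 on the log2 scale (SE 0.13, adjusted p = 0.00928). The groups did not overlap for either gene, but the library-set term ended the call of Ank3, whose adjusted p ran between 0.00112 and 0.0628 over the 16 alternatives.

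Utrn and Dmd encode utrophin and dystrophin, relatives that link actin to the dystroglycan complex, and neither was called. Utrn had 135, 110 and 87.6 CPM in AA tubules, against 105, 163 and 155 CPM in DMSO tubules, with a fold change of −0.34 on the log2 scale (SE 0.20, adjusted p = 0.214) and overlapping groups. Dmd, of 2257 kb, had 10.2 to 16.2 CPM in AA tubules and 5.78, 5.91 and 10.1 CPM in DMSO tubules. The fold change was 0.74 on the log2 scale (SE 0.26, adjusted p = 0.0544), and without DMSO replicate 3 it was 0.97 (adjusted p = 0.0187). Ank2, for ankyrin B, had a log2 fold change of −0.40 with overlapping groups.

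Transcription factors and regulators made up the last 8 genes, of which 4 fell and none rose, with a group median of −0.59. Zbtb20, a zinc finger repressor gene, was the most abundant of all the long genes per length, at 45.8 CPM per exonic kb in AA tubules and 75.8 in DMSO tubules. It had 1516, 1322 and 1388 CPM in AA tubules, against 2379, 2215 and 2395 CPM in DMSO tubules. Its log2 fold change was −0.73 (SE 0.17, adjusted p = 0.00891), with no overlap. Quantile normalization, the unfiltered fit and the library-set term each ended the call, and over the 16 alternatives its adjusted p ran between 0.00309 and 0.0674. Esrrg encodes an orphan nuclear receptor of oxidative metabolism and had 28.2, 57.9 and 28.6 CPM in AA tubules, against 102, 85.8 and 89.0 CPM in DMSO tubules. On the log2 scale the fold change was −1.33 (SE 0.24, adjusted p = 0.00257). The groups did not overlap, although AA replicate 2, the library highest in thick ascending limb markers, was also the highest AA library for Esrrg; the part of these markers in the Esrrg value was not tested.

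Auts2, which encodes a partner of a Polycomb complex, had 24.7, 22.3 and 25.6 CPM in AA tubules, against 40.3, 50.6 and 51.8 CPM in DMSO tubules, with a fold change of −0.94 on the log2 scale (SE 0.16, adjusted p = 0.00175). Foxp2, a forkhead repressor gene, had 11.1, 14.7 and 18.4 CPM in AA tubules, against 22.7, 24.2 and 23.1 CPM in DMSO tubules. The fold change was −0.65 on the log2 scale (SE 0.20, adjusted p = 0.0313). Neither gene's groups overlapped, but the Foxp2 call was lost in 7 of 16 alternative fits, including the omission of any library other than AA replicate 3. Its relative Foxp1 had −0.53 (adjusted p = 0.0538) and the basic helix-loop-helix gene Tcf4 had −0.26; for both the groups did not overlap, yet neither was called.

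Rora encodes a nuclear receptor of the clock and of metabolism. It had 167, 175 and 153 CPM in AA tubules, against 165, 140 and 162 CPM in DMSO tubules, with a fold change of 0.08 on the log2 scale (SE 0.13, adjusted p = 0.664). The groups overlapped, and its fold change was −0.18 with the library medians equalised and −0.16 with TMM factors. Sox5, of the SOX family, had a log2 fold change of 0.38 with 2.30 to 3.70 CPM in AA tubules and 1.57 to 3.63 CPM in DMSO tubules. It also had the largest share of exonic bases under exons of the opposite strand, 9.25%. That share was 6.84% for Fhit, 5.68% for Lrba, 4.66% for Nrg1 and 4.43% for Pard3b, and whether the counting used strand is not given in the sources used here.

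Length itself was then compared with the fold change over the whole table, for the 97.1% of tested genes (13895) with a GENCODE length. The percentage called lower rose with genomic span from class to class. Of the 39 long genes, 56.4% were lower and 7.69% higher. In the class under 10 kb (3694 genes), 4.17% were lower and 29.9% higher, and in the class from 10 to 30 kb (4388 genes), 4.88% and 26.8%. From 30 to 100 kb (3936 genes), 8.28% were lower and 16.4% higher. From 100 to 300 kb (1504 genes), 23.8% were lower and 9.77% higher, and at 300 kb and over (373 genes, the 39 included), 40.5% and 9.38%.

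The median log2 fold changes of these 5 classes were 0.35, 0.31, 0.13, −0.16 and −0.48. The 334 tested genes of 300 kb or more that are not among the 39 had a median of −0.43, with 129 lower (38.6%) and 32 higher (9.58%). The decrease was thus measured also in long genes outside the list, and whether the 39 differ from those 334 was not tested. Spearman's rho of fold change with genomic span was −0.28 over the 13895 genes and −0.28 without the 39. With no filter on low values it was −0.0818. Genes are not independent replicates, and these values describe the table.

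**Figure D3:**
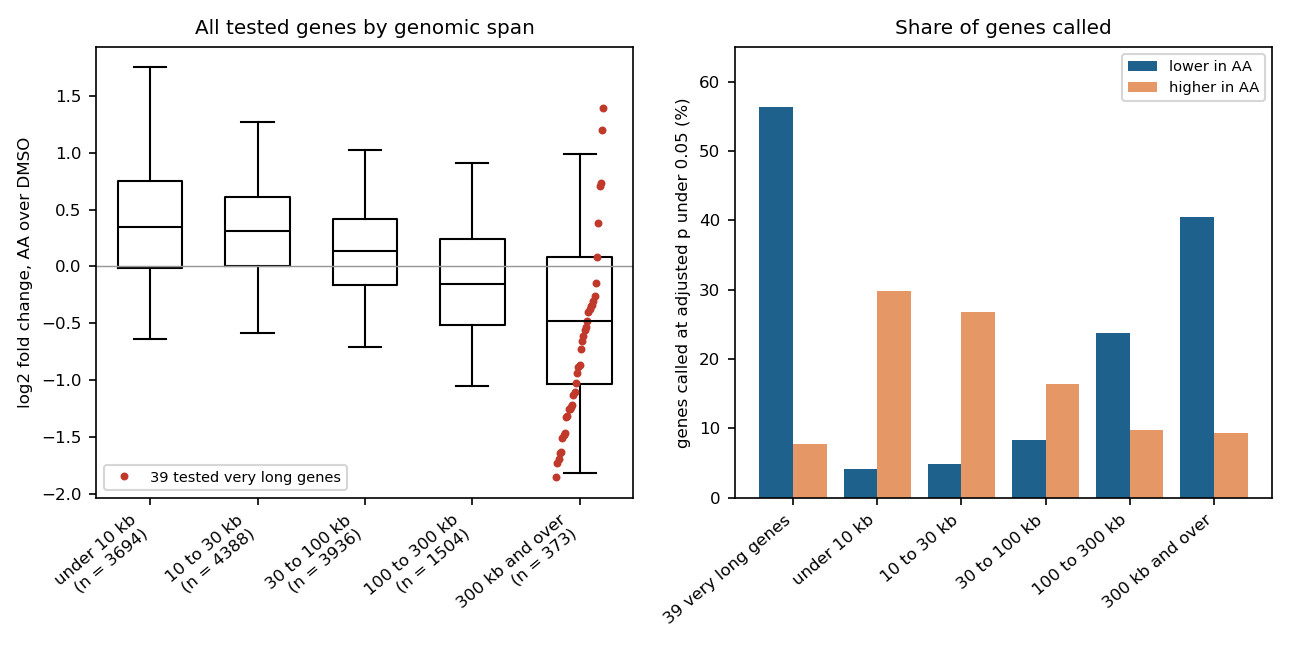
Left, log2 fold change of AA over DMSO for all tested genes in 5 classes of genomic span (box, quartiles and median; whiskers, 5th to 95th percentile), with the 39 very long genes as points on the last class. Right, percentage of genes called lower or higher in AA tubules; the 39 genes reach 56.4% lower, and the classes go up from 4.17% to 40.5% lower.

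Span, exonic length and abundance are linked among genes, so the relation was also read within classes. Spearman's rho with exonic length in place of span was −0.16, and with the mean log2 level it was −0.17. Within terciles of the genes by exonic length, rho with span was −0.12, −0.24 and −0.37 from the shortest to the longest tercile. Within terciles by mean level, it was −0.19, −0.27 and −0.34 from the lowest to the highest tercile. The sign was negative in all 6 of these groups of genes, and over protein-coding genes alone rho was −0.30.

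Above 300 kb the relation with span was not steady. Of the genes of 300 to 500 kb (240), 42.1% were lower, with a median log2 fold change of −0.47. Those of 500 to 1000 kb (103) had 39.8% and −0.53, and those of 1000 kb or more (30) had 9 lower and a median of −0.37. Of these 373 genes, 39 are the long genes described here. Their median log2 fold change was −0.89 for the 7 under 500 kb, −0.92 for the 20 from 500 to 1000 kb and −0.61 for the 12 longer ones, and all 3 genes called higher were among those 12. Over the 39, rho with span was 0.26, with exonic length 0.18, with the longest stretch without an exon 0.18, with the number of exons −0.08 and with mean level −0.14, as a description of genes that share 6 libraries.

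The pattern was present in each AA library taken singly. Each library was set against the DMSO mean, and each DMSO library against the mean of the other 2. The median of the 39 genes was −1.003, −0.66 and −0.75 in AA replicates 1, 2 and 3, against −0.12, 0.10 and 0.02 in the DMSO replicates. Values below 0 were found for 33, 32 and 32 of the 39 genes in the AA replicates, against 27, 12 and 17 in the DMSO replicates. The Spearman correlation with genomic span was −0.277, −0.233 and −0.296 in the AA replicates, against 0.0441, −0.0562 and 0.0314 in the DMSO replicates. No AA value of these measures overlapped a DMSO value.

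**Figure D4:**
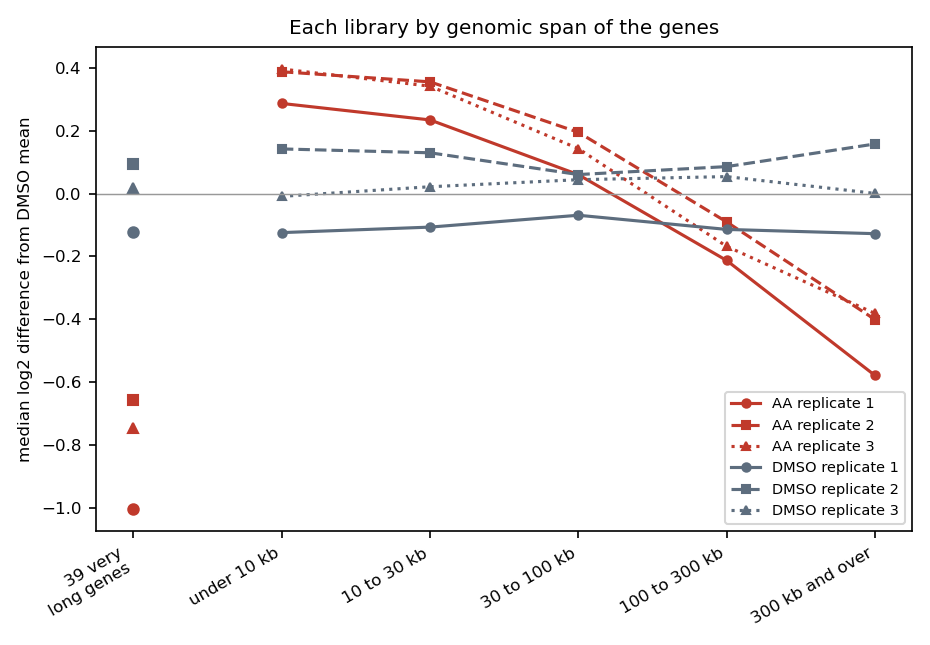
Median log2 difference from the DMSO mean in each library (for a DMSO library, from the mean of the other 2), for the 39 very long genes at the left and for 5 classes of genomic span. The 3 AA lines start above 0 for short genes and end between −0.58 and −0.38 at 300 kb and over, the 39 long genes lie between −1.003 and −0.66, and the DMSO values stay between −0.13 and 0.16.

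Together the 40 long genes made up 3087, 3033 and 2948 CPM in AA tubules, against 5035, 5022 and 5211 CPM in DMSO tubules. Zbtb20 gave much of that sum. Without it the sums were 1571, 1711 and 1561 CPM in AA tubules, against 2656, 2807 and 2816 CPM in DMSO tubules, and the groups stayed apart.

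The same families also hold shorter genes, and 83 relatives or complex partners of the long genes were listed. Of these, 76 were tested, with a median span of 61.7 kb. In AA tubules 11 were lower (14.5%) and 8 higher (10.5%), and their median log2 fold change was 0.08. Across all tested genes, 8.66% were lower and 22.3% higher, with a median of 0.21. The relatives were thus also more often lower and less often higher, and 48 of the 76 lay below that median. The 49 relatives under 100 kb included 2 lower and 7 higher, with a median of 0.16. The 27 of 100 kb or more included 9 lower and 1 higher, with a median of −0.09. For 36 of the 39 long genes a relative was tested. The most abundant relative had the higher log2 fold change in 28 of these 36 pairs and the lower in 8. It was the shorter gene in 35, and the median difference of long gene minus relative was −0.71. These pairs hold 30 distinct relatives, so some share one.

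Among the 20 long genes that fell and had a tested relative, the relative was called lower in 6 pairs, higher in 1 and not called in 13. Diaph1, a shorter formin gene of 91.9 kb, rose where Diaph2 fell, with 59.4 ± 5.07 CPM in AA tubules and 38.6 ± 6.43 CPM in DMSO tubules (SD, n = 3 each; log2 fold change 0.62, adjusted p = 0.015). Prkcz, for the atypical protein kinase C that partners both Pard3 and Pard3b, fell with them, to 63.9 ± 2.96 CPM in AA tubules, against 111 ± 7.33 CPM in DMSO tubules (log2 fold change −0.78, adjusted p = 0.00143). The direction of the partner thus differed from family to family.

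Beside long genes that fell, 4 more relatives fell, each with a log2 fold change nearer to 0 than that of its long gene. Exoc6, the partner of Exoc6b in the list, had a fold change of −0.61 on the log2 scale (adjusted p = 0.00926), Ptprf, beside Ptprd, −0.47 (adjusted p = 0.0407) and Vps13d, beside Vps13b, −0.46 (adjusted p = 0.0255). Wdfy3, beside Lrba, had −0.56 (adjusted p = 0.00807), with 267 ± 19.9 CPM in AA tubules and 394 ± 16.0 CPM in DMSO tubules. Beside long genes that were not called, 3 relatives were lower in AA tubules and had the more negative log2 fold change of the pair. They were Macrod1 at −0.65 beside Macrod2 at −0.14, Sox6 at −0.62 beside Sox5 at 0.38, and Wdfy3 at −0.56 beside Nbea at −0.38. Macrod1 spans 141 kb, Wdfy3 237 kb and Sox6, itself a very long gene, 568 kb. The differences between the genes of a pair were not tested.

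Several relatives stayed within their standard error or little beyond it. Magi3, the shorter relative of Magi1 and Magi2, had a fold change of 0.11 on the log2 scale (SE 0.18), Alkbh5, an RNA demethylase gene beside Fto, had 0.09 (SE 0.14) and Nit1, beside Fhit, had 0.16 (SE 0.12). Vps35, the retromer core subunit bound by the product of Tbc1d5, had −0.09 (SE 0.17) and Ptpru, beside Ptprk and Ptprm, had −0.04 (SE 0.26). Mocs1, for the first step of the pathway that Gphn completes, had 0.24 (SE 0.16). The remaining uncalled relatives of fallen genes were Wwp1 at −0.17, Fbrsl1 at 0.16, Esrra at −0.22, Foxp4 at 0.08, Cdh16 at −0.40 and Zbtb16 at 0.86 (SE 0.36). For the genes that rose, Egfr beside Erbb4 had 0.20 and Nrg4 beside Nrg1 had −0.07, and neither was called.

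**Figure D5:**
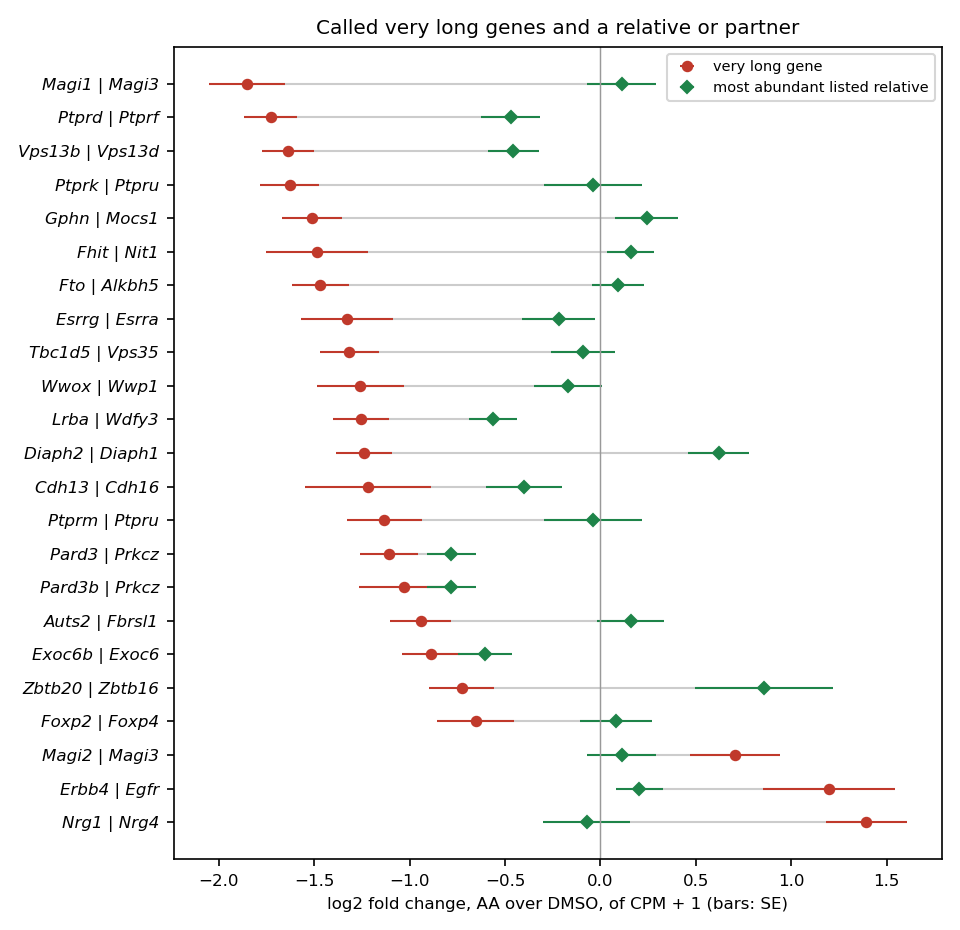
Log2 fold change of AA over DMSO, with its standard error, for each called very long gene (circle) and its most abundant listed relative (diamond), joined by a line. The long gene lies left of its relative in all 20 pairs whose long gene fell, a direction that choosing called genes favours, and right of it for Nrg1, Erbb4 and Magi2.

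Markers of proximal tubule and of other kidney cells were read beside these results. The 8 proximal tubule markers summed to 6677 to 7938 CPM in AA tubules and 12861 to 18126 CPM in DMSO tubules, with 4 lower and none higher. All 8 were detected in every library. Lrp2, the endocytic receptor megalin, fell most in CPM, to 2323 to 3440 CPM in AA tubules, against 6251 to 8476 CPM in DMSO tubules. It gave the largest part of the sum in every library. Cubn, Slc13a3 and Acy3 were also lower. Slc34a1, Slc22a6, Slc22a8 and Slc7a13 were not called, and the groups overlapped for each of them. Slc22a8, for example, had 78.3 to 107 CPM in AA tubules and 43.2 to 108 CPM in DMSO tubules. Markers of other cells summed to less, and the sums of some of these lists differed between the groups.

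The 5 fibroblast and mural cell markers summed to 145 to 171 CPM in AA tubules and 71.1 to 113 CPM in DMSO tubules (3 higher). The 5 principal cell markers summed to 36.2 to 78.7 CPM in AA tubules and 12.9 to 28.7 CPM in DMSO tubules (1 higher). The 5 intercalated cell markers summed to 10.7 to 26.3 CPM in AA tubules and 7.80 to 8.90 CPM in DMSO tubules (1 higher). In these 3 lists the AA sums did not overlap the DMSO sums. The same held for the podocyte list, at 78.7 to 124 CPM in AA tubules and 52.7 to 76.0 CPM in DMSO tubules.

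The 5 endothelial markers summed to 197 to 230 CPM in AA tubules and 122 to 198 CPM in DMSO tubules (2 higher). Leukocyte markers, 5 of the 6 tested, summed to 157 to 213 CPM in AA tubules and 174 to 266 CPM in DMSO tubules (2 higher). Csf1r, which was not called, gave most of that sum, with 111 to 172 CPM in AA tubules and 159 to 253 CPM in DMSO tubules. Cd68 was called higher, with 20.1 to 38.4 CPM in AA tubules and 0.376 to 1.25 CPM in DMSO tubules. Lyz2 was also called higher. Ptprc and Adgre1 were not called, and Cd3e was not tested. Distal convoluted tubule markers, 3 of the 4 tested, summed to 39.5 to 103 CPM in AA tubules and 54.7 to 71.6 CPM in DMSO tubules (none called). The thick ascending limb list had 2 of 5 higher and the podocyte list 1 of 6. No marker of these lists was lower apart from those of the proximal tubule, and none was at 0 in all libraries. The part of these markers in the values of the long genes was not tested.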

How the data were processed

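RNA of hand-dissected S2 and S3 proximal tubule segments was sequenced in 3 AA and 3 DMSO libraries. The kits were PicoPure for RNA and TruSeq Stranded mRNA for the libraries, per the labels' protocols. Per the submitters' processing notes, bcl2fastq 2.19 and kallisto were used and the genome build was mm10. What annotation and strand setting were used, and how transcripts were joined to genes, was not given in the sources used here.

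Values deposited by the authors are on a log10 scale, read from the numbers themselves as log10(CPM + 1). All values (100%) came out as whole reads, within 0.1 read, when the steps of each column were undone. Values were turned back to CPM and logged as log2(CPM + 1), so the fold changes of low genes are understated. The 14311 genes at 1 CPM or more in 3 or more libraries were tested with limma 3.58.1 in R 4.3.3 (moderated test, variance trend, two-sided). P-values were Benjamini-Hochberg adjusted over all tested genes; calls are at an adjusted p under 0.05. The SE is the moderated one. In simulated data, the test on 14042 genes found 41% of the 2-fold changes and 78.4% of the 4-fold changes. Of its calls 2.5% were false, and 0 had the wrong sign. The simulation changed few genes, equally many up and down, and held no difference between library sets. In the real data 30.9% of the tested genes were called, 72.0% of them higher, so these rates need not hold there. The 27 symbols that had turned into dates and the 2 that occur more than once include none of the long genes.

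Genes were matched by symbol to GENCODE M21 (GRCm38), and a span runs over all transcripts of a gene. Promoters came from RefSeq. The long genes, relatives and marker lists were chosen with earlier results of these data known. Every tested long gene is named. Those called, and the 2 most abundant of each role, have values in every library, and the most abundant tested relative of each called gene is named. The 16 alternative fits changed the scaling, filter, pseudocount, count model, replicate block, library-set term or the libraries used.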

Additional observations from a re-analysis of the deposited data

How the results depend on the processing

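Of the 39 long genes, 22 were lower and 3 higher in AA tubules in the reported fit. Of these, 18 were called lower and 1 higher (Nrg1) in each of the 16 alternative fits that gave them a value. Counting each gene under each alternative, 556 fold changes kept their direction and side of the threshold, 33 lost a call, 27 gained one and 3 changed sign. The sign changes were those of Rora, to −0.18 with library medians equalised and −0.16 with TMM factors, and of Ank2, to 0.0894 with a term that sets DMSO replicates 1 and 2 against the other 4 libraries. The number of long genes higher was 1 with medians equalised, with quantile normalization, with no filter on low values and with the library-set term. Leaving out 1 library gave 1 to 3 higher and 20 to 23 lower; without AA replicate 2, AA replicate 3 or DMSO replicate 1 the number higher was 1. The median log2 fold change of the 39 was −1.13 with medians equalised, −1.11 with quantile normalization and −0.55 with a pseudocount of 5, and −0.93 to −0.76 with 1 library left out. Spearman's rho with span was −0.0818 with no filter (22445 genes tested, fewer with a length). With 1 library left out it was −0.298 to −0.263. With the RefSeq span, an alternative added after the data were seen, it was −0.30. With exonic length in place of span, rho was −0.16 in the reported fit. With no filter 20 of 40 long genes were lower, and with the library-set term 18 were lower and 1 higher, against 2.96% and 7.39% of all tested genes. Genes called in the whole table numbered 4426, but 1481 with the library-set term and 2645 without AA replicate 2, and the cause was not tested. Both of these fits compare fewer libraries, since the library-set term leaves DMSO replicate 3 as the only solvent library set against AA. Fewer libraries make a call harder to reach, and how much of the drop this gave was not tested. The voom fit on the recovered whole reads called 4366 genes, with 22 long genes lower and 4 higher. Same-numbered AA and DMSO libraries did not deviate together (r of −0.109, −0.156 and −0.0151), and none correlated best with its own number. No pairing by number was thus seen, but with 3 libraries per group this cannot exclude one. With the replicate block 23 long genes were lower and 2 higher. At a depth where 3 reads are 0.0964 to 0.225 CPM, changes of Lrp1b could not be detected.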
